A study of Schizosaccharomyces pombe with 12 samples.

Results

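The 9 genes clr1, clr2, clr3, mit1, chp2, sir2, clr6, epe1 and mst2 of the fission yeast Schizosaccharomyces pombe code for deacetylases, remodelling factors and antagonists of heterochromatin. Their probe sets were found by gene symbol among 2896 genes named on the arrays. All 9 had 1 probe set each, and all 9 gave a signal above background in 4 of 4 groups. RNA levels were measured on 12 GeneChip arrays, short-oligonucleotide microarrays with probes for both fission and budding yeast. The groups were mis4-367 cells at 37 °C, mis4+ cells at 37 °C, mis4-367 cells at 25 °C and mis4+ cells at 25 °C, with 3 arrays each. The replicates were independent inoculates, per the design text. The allele mis4-367 is a thermosensitive version of mis4, whose product loads the cohesin ring on chromosomes, and mis4+ is the wild-type allele. All 4 groups shared the mating type h- and the plasmid ura4+-pREP2-res1, from which a C-terminal Res1 fragment was overexpressed once thiamine was withdrawn, and which arrested the cells in G1 by titrating Cdc10. Arrest was reached at 25 °C, and the groups at 37 °C then spent 2 h at that temperature, which the mutant does not tolerate. The comparisons therefore ask how arrested cells of each strain changed with the shift and how the strains differed before and after it. No group was labelled as held 2 h longer at 25 °C. A change with the shift thus cannot be told apart from a change with time in arrest.

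Heterochromatin in fission yeast forms at centromeres, telomeres and the silent mating-type loci, where Clr4 methylates lysine 9 of histone H3 and HP1 proteins bind the mark. The SHREC complex joins the histone deacetylase Clr3, the remodelling ATPase Mit1, the zinc-finger protein Clr1 and the protein Clr2. The HP1 protein Chp2 brings the complex to heterochromatin to keep RNA polymerase II out. The deacetylases Sir2 and Clr6 work beside it, while the JmjC-domain protein Epe1 and the histone H3 acetyltransferase Mst2 counteract silencing.

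Values are RMA intensities on a linear scale, so they can be compared between arrays for 1 gene but not between genes. The median intensity over the 2896 genes lay between 394 and 433 on the 12 arrays. Replicate 3 of mis4+ at 37 °C stood apart: the SD of its log2 differences from its fellow replicates was 0.202, against 0.0654 to 0.134 on the other 11 arrays. The transcript of the mutated gene itself does not check the labels, since mis4-367 is an allele that is still transcribed: mis4 averaged 307 ± 28.4 in mis4-367 and 321 ± 18.5 in mis4+ at 37 °C (SD, n = 3 each). The signal of res1 averaged 1658 ± 210 in mis4-367 and 1257.5 ± 145 in mis4+ at 37 °C, and 1921 ± 62.5 and 1722 ± 42.4 at 25 °C (SD, n = 3 each). At each temperature every mis4-367 array lay above every mis4+ array, narrowly at 37 °C. Whether this signal reads the plasmid fragment, and its part in other strain differences, was not tested. For the mating type, 5 genes of M (h-) cells summed to intensities of 4563 to 6848 over the 12 arrays, and the P-cell genes map2 and map3 to 124 to 165, all of them above background. Since signals of different genes cannot be compared, these sums do not by themselves check the mating type. With the shift mfm1 and mfm3 of the M genes fell and mam1 rose in both strains. In mis4-367 relative to mis4+, mfm3 was lower by 0.53 at 25 °C and 0.62 at 37 °C on the log2 scale, and mfm1 by 0.89 at 37 °C. Of 7 heat-shock and chaperone genes, 4 rose, 1 fell (ssa1, an Hsp70 gene) and 2 did not pass with the shift in each strain. Of all genes, 33.4% rose in each strain, and 23% fell in mis4-367 and 21.9% in mis4+. Among the 7, hsp16 of a small heat-shock protein had the largest rise. The signal of hsp16 averaged 6839 ± 324 at 37 °C against 3202 ± 180 at 25 °C in mis4-367 (SD, n = 3 each). It averaged 6637 ± 167 at 37 °C against 3742 ± 40.05 at 25 °C in mis4+ (SD, n = 3 each).

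**Figure D1:**
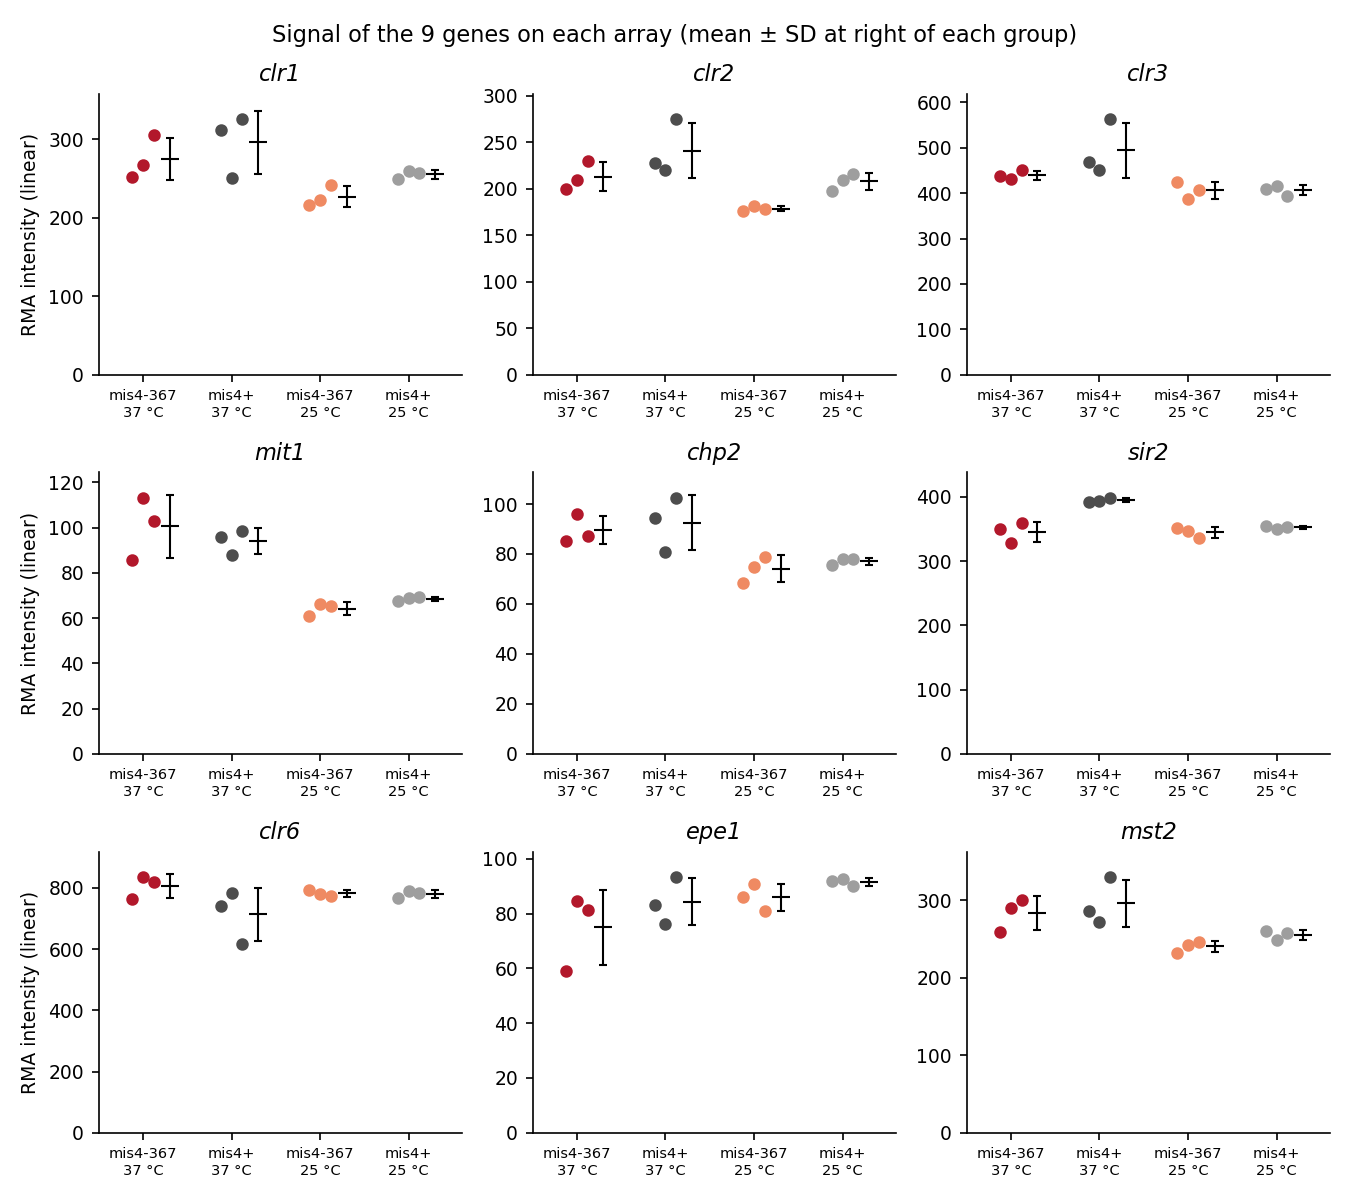
RMA intensity on a linear axis that starts at 0, one panel per gene; each dot is 1 array and the cross with bars gives the mean ± SD of 3 arrays. For mit1 all 6 arrays at 37 °C lie at 85.5 or above and all 6 at 25 °C at 69.4 or below, and for sir2 the mis4+ arrays at 37 °C, at 392 or above, lie over all others.

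With the shift to 37 °C the signals of the SHREC genes clr2, mit1 and chp2 rose in both strains, by less than 1.6-fold. Of these only mit1 also rose in both strains after a second quantile normalization over the S. pombe genes. In mis4-367, 4 of the 5 SHREC genes rose (clr1, clr2, mit1 and chp2), and in mis4+ 4 of the 5 rose (clr2, clr3, mit1 and chp2). The largest change among the 9 genes in each strain was that of mit1. With mst2 in both strains and sir2 in mis4+, 5 of 9 genes rose in mis4-367, where 33.4% of all 2896 genes rose, and 6 of 9 rose in mis4+, where 33.4% of all genes rose. In 6 of the 9 genes in each strain every array at 37 °C lay above every array at 25 °C, beside 39.6% of all genes in mis4-367 and 36.4% in mis4+. None of the 9 fell in either strain, while 23% of all genes fell in mis4-367 and 21.9% in mis4+. The median log2 change of the 9 genes was 0.23 in mis4-367 and 0.21 in mis4+, beside 0.04 and 0.04 over all genes. The test was limma over all 12 arrays with Benjamini-Hochberg adjustment over the 2896 genes, and a gene was said to rise or fall at an adjusted p under 0.05.

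The remodelling ATPase gene mit1 (probe set 1771123_at) had intensities of 85.5, 113 and 103 in mis4-367 cells at 37 °C, against 61.0, 66.1 and 65.6 at 25 °C. In mis4+ cells it had 96.0, 87.8 and 98.7 at 37 °C, against 67.6, 68.9 and 69.4 at 25 °C. Every array at 37 °C was above every array at 25 °C in both strains. The log2 change was 0.64 ± 0.085 (SE) in mis4-367, a 1.56-fold rise with a limma adjusted p of 4.75e-05. It was 0.46 ± 0.085 in mis4+, a 1.37-fold rise with a limma adjusted p of 0.000692. In the order of all genes by change, mit1 stood at place 173 from the top in mis4-367 and at place 328 in mis4+.

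The HP1 gene chp2 (probe set 1777058_at), whose product tethers SHREC to methylated nucleosomes, had 85.4, 96.0 and 87.3 in mis4-367 at 37 °C, against 68.3, 74.9 and 78.9 at 25 °C. In mis4+ the intensities were 94.4, 80.7 and 102 at 37 °C, against 75.5, 77.8 and 78.1 at 25 °C. The groups did not overlap in either strain, although replicate 2 of mis4+ at 37 °C was close to the 25 °C arrays. The log2 rise was 0.28 ± 0.082 in mis4-367 (limma adjusted p = 0.0129) and 0.26 ± 0.082 in mis4+ (limma adjusted p = 0.0197).

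The zinc-finger gene clr1 (probe set 1774674_at) had 252, 267 and 305 in mis4-367 at 37 °C, against 216, 223 and 242 at 25 °C. In mis4+ it had 312, 251 and 325 at 37 °C, against 249, 259 and 257 at 25 °C. The mis4-367 groups did not overlap, whereas replicate 2 of mis4+ at 37 °C lay among the 25 °C arrays. The log2 rise in mis4-367 was 0.27 ± 0.094 (limma adjusted p = 0.0248), and the difference in mis4+, 0.21 ± 0.094, did not pass (limma adjusted p = 0.0814).

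The SHREC gene clr2 (probe set 1771018_at) had 200.1, 209 and 230.4 in mis4-367 at 37 °C, against 177, 182 and 178 at 25 °C. In mis4+ it had 228, 220.5 and 275 at 37 °C, against 198, 210.0 and 216 at 25 °C. Neither pair of groups overlapped, and replicate 3 was the highest array in mis4+. The log2 rise was 0.25 ± 0.079 in mis4-367 (limma adjusted p = 0.0159) and 0.21 ± 0.079 in mis4+ (limma adjusted p = 0.0412).

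The deacetylase gene clr3 (probe set 1775682_at), which codes for the catalytic subunit that removes acetyl groups from histone H3, had 438, 431 and 450.3 in mis4-367 at 37 °C, against 424, 387 and 407 at 25 °C. In mis4+ it had 468, 451 and 563 at 37 °C, against 409, 416 and 394 at 25 °C. The 37 °C arrays were above the 25 °C arrays in both strains, by a small margin in mis4-367. The log2 change of 0.12 ± 0.072 in mis4-367 did not pass (95% interval -0.04 to 0.27, limma adjusted p = 0.191), and in mis4+ clr3 rose by 0.28 ± 0.072 (limma adjusted p = 0.00631).

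The deacetylases outside SHREC were less alike. The gene of the NAD-dependent deacetylase sir2 (probe set 1771676_at) had 350.4, 328 and 359 in mis4-367 at 37 °C, against 352, 347 and 336 at 25 °C. In mis4+ it had 392, 394 and 398 at 37 °C, against 355, 351 and 353 at 25 °C. The mis4-367 groups overlapped and the mis4+ groups did not. The log2 difference in mis4-367 was 0.00 ± 0.043 (95% interval -0.09 to 0.10, limma adjusted p = 0.961), and in mis4+ sir2 rose by 0.16 ± 0.043, or 1.12-fold (limma adjusted p = 0.00716).

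The gene of clr6 (probe set 1775475_at), the essential class I deacetylase that acts on much of the genome, had 763, 835 and 819 in mis4-367 at 37 °C, against 794, 778 and 773 at 25 °C. In mis4+ it had 742, 782 and 616 at 37 °C, against 767, 791 and 782 at 25 °C. Groups overlapped in both strains, and replicate 3 of mis4+ at 37 °C was the lowest of the 12 arrays. The log2 difference was 0.04 ± 0.074 in mis4-367 (95% interval -0.12 to 0.20, limma adjusted p = 0.647) and -0.14 ± 0.074 in mis4+ (95% interval -0.30 to 0.02, limma adjusted p = 0.137).

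The antagonists of silencing also differed from each other. The acetyltransferase gene mst2 (probe set 1770475_at) had 259, 290.0 and 301 in mis4-367 at 37 °C, against 232, 243 and 247 at 25 °C. In mis4+ it had 287, 272 and 330.0 at 37 °C, against 261, 248 and 258 at 25 °C. Its groups overlapped in neither strain. The log2 rise was 0.23 ± 0.073 in mis4-367 (limma adjusted p = 0.0162) and 0.21 ± 0.073 in mis4+ (limma adjusted p = 0.0299).

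The anti-silencing gene epe1 (probe set 1775672_at), whose product limits the spread of heterochromatin over its boundaries, had 59.2, 84.5 and 81.3 in mis4-367 at 37 °C, against 86.1, 90.9 and 80.8 at 25 °C. In mis4+ it had 83.3, 76.3 and 93.4 at 37 °C, against 91.9, 92.8 and 90.1 at 25 °C. Groups overlapped in both strains, and replicate 1 of mis4-367 at 37 °C was the lowest of the 12 arrays. The log2 difference was -0.21 ± 0.115 in mis4-367 (95% interval -0.46 to 0.04, limma adjusted p = 0.133) and -0.12 ± 0.115 in mis4+ (95% interval -0.37 to 0.13, limma adjusted p = 0.374). Without that lowest array the value in mis4-367 was -0.05 (limma adjusted p = 0.607), and without replicate 3 at 37 °C the value in mis4+ was -0.20 (limma adjusted p = 0.186).

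**Figure D2:**
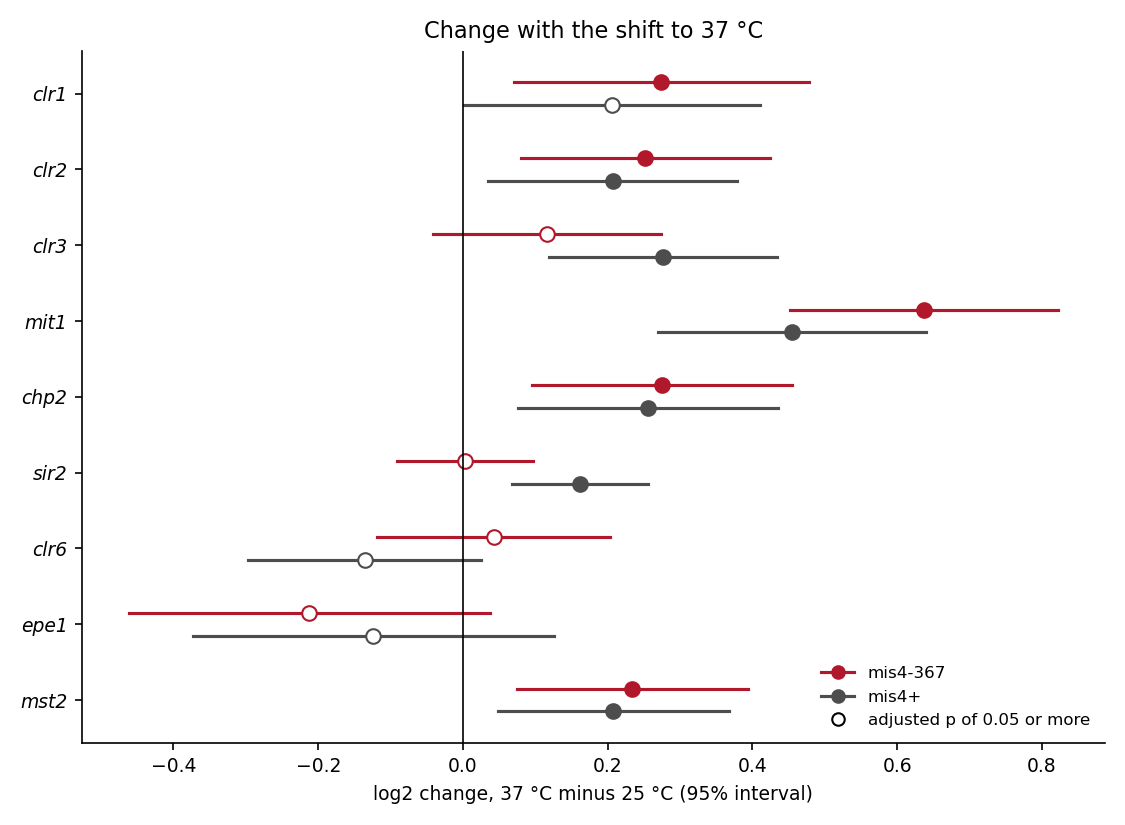
Log2 change with the shift, 37 °C minus 25 °C, for each gene in mis4-367 and in mis4+; bars are 95% intervals from limma and filled dots have an adjusted p under 0.05. The dot of mit1 lies farthest to the right in both strains, at 0.64 and 0.46, and the intervals of clr6 and epe1 include 0 in both.

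Several of these calls depended on how the arrays were scaled or on 1 array. After a second quantile normalization over the S. pombe genes alone, mit1 (0.41, limma adjusted p = 0.000206) and mst2 (0.16, limma adjusted p = 0.0283) were the genes that rose in mis4-367. In mis4+, clr3, mit1, sir2 and mst2 rose on that scale. On it epe1 fell by 0.43 in mis4-367 (limma adjusted p = 0.00383) and by 0.36 in mis4+ (limma adjusted p = 0.0104), and chp2 changed by only 0.04 in each strain. The rescaling lowered the log2 changes of mit1, chp2 and epe1, the members with signals of at most 113, by 0.21 to 0.24, and those of the other 6 by 0.01 to 0.11. Of all genes, 828 rose and 837 fell in mis4-367 on that scale, beside 966 and 667 on the deposited one, and 847 rose and 834 fell in mis4+, beside 968 and 633. Replicate 3 of mis4+ at 37 °C was above the mean of its fellow replicates by 0.02 to 0.30 on the log2 scale for 8 of the 9 genes and below it by 0.31 for clr6. Without it, 3 genes rose in mis4+ (clr3, mit1 and sir2), and clr2 (0.11, limma adjusted p = 0.131), chp2 (0.18, 0.0684) and mst2 (0.13, 0.0946) did not pass. The count in mis4+ was also 3 without replicate 1 at 25 °C. In mis4-367 it was 2 without replicate 1 at 25 °C, 2 without replicate 3 at 37 °C and 3 without replicate 2 at 37 °C, and mit1 passed each time.

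**Figure D3:**
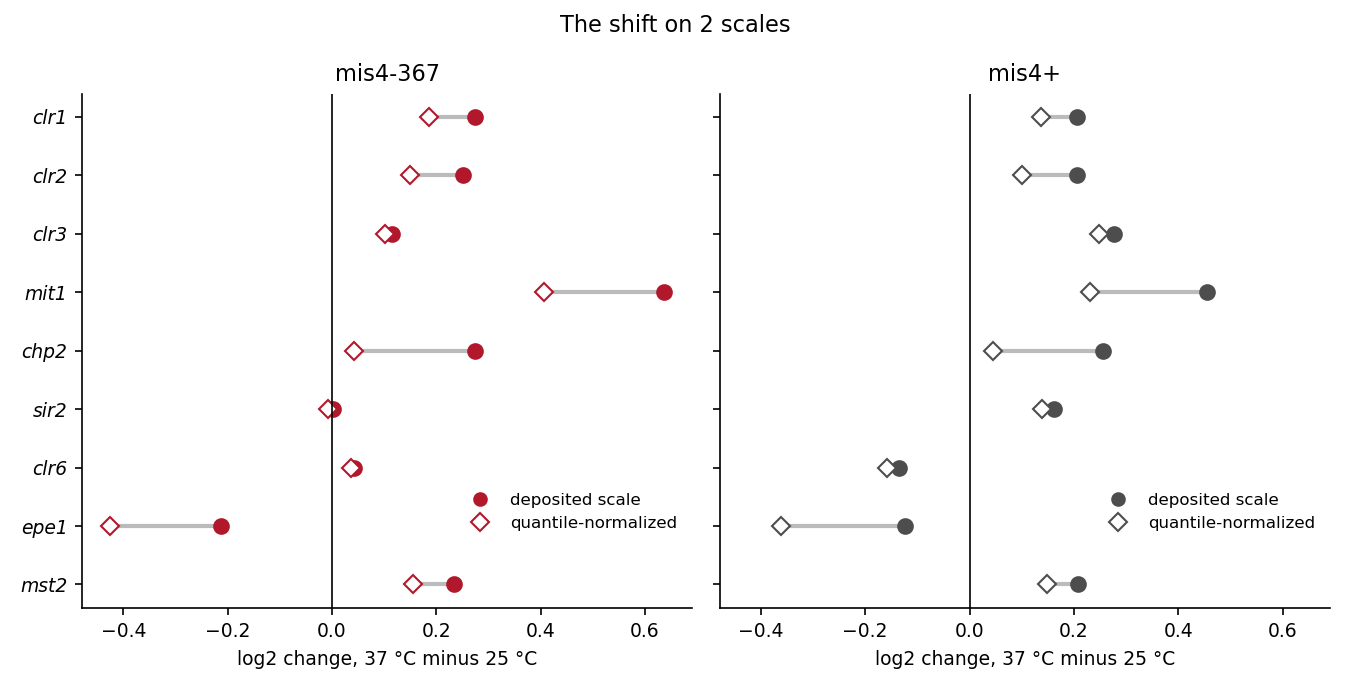
Log2 change with the shift on the deposited scale (filled dots) and after quantile normalization over the S. pombe genes (open diamonds), in mis4-367 and in mis4+. The diamonds of mit1, chp2 and epe1 lie 0.21 to 0.24 left of their dots, which puts chp2 at 0.04 in both strains.

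Between strains, the deacetylase gene sir2 was the member called, at 37 °C. Its intensities there of 350.4, 328 and 359 in mis4-367 all lay below the 392, 394 and 398 in mis4+. It fell by 0.19 ± 0.043 on the log2 scale in mis4-367 relative to mis4+, a 1.14-fold lower signal (95% interval -0.29 to -0.10, limma adjusted p = 0.0293). This was 1 of 9 genes, beside 7.18% of all genes, of which 50 (1.73% of all) were higher and 158 (5.46%) lower in mis4-367. That split was 88 and 88 after quantile normalization and 80 and 108 after centring each array on its median. On these scales sir2 no longer passed, with log2 differences of -0.14 (limma adjusted p = 0.0815) and -0.15 (limma adjusted p = 0.0693). It passed in 12 of 16 alternative settings, with limma adjusted p-values from 0.00967 to 0.217, and it did not pass without replicate 2 of mis4-367 at 37 °C (-0.16, limma adjusted p = 0.118) or in a fit of the 37 °C arrays alone. Without the array of mis4+ that stood apart, its value was -0.19 (limma adjusted p = 0.0448).

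Some markers of cells outside G1 also differed between the strains. Of 16 mitosis and septation genes, 5 were lower in mis4-367 at 37 °C (slp1, fin1, cdc13, cdc25 and cut2), beside 5.46% of all genes. The summed intensity of the 16 genes was 5424 to 5651 in mis4-367, against 6057 to 6668 in mis4+. The count of lower genes was 4 after quantile normalization and 2 without replicate 3 of mis4+ at 37 °C, where fin1, cdc25 and cut2 did not pass. At 25 °C none of the 16 passed with limma, beside 0.622% of all genes. The log2 differences at 37 °C were -0.50 (slp1), -0.43 (fin1), -0.32 (cdc13), -0.27 (cdc25) and -0.25 (cut2). At 25 °C they were -0.27, -0.41, -0.09, -0.22 and -0.12 in that order, so fin1 and cdc25 differed by nearly as much before the shift. The summed intensity of the 16 genes at 25 °C was 6328 to 6418 in mis4-367, against 6657 to 7000 in mis4+. Taken singly, 17.3% of all genes at 37 °C and 23.9% at 25 °C were lower in mis4-367 with no overlap. With the shift, 1 of the 16 rose and 6 fell in mis4-367, and 3 rose and 7 fell in mis4+. Beside this, 33.4% of all genes rose in each strain, and 23% fell in mis4-367 and 21.9% in mis4+. After quantile normalization 10 of the 16 fell in each strain, and 1 rose and 8 fell in mis4+ without its replicate 3 at 37 °C. In these bulk samples fewer cells of a stage and less RNA per cell cannot be told apart. The part of these markers in the difference of sir2 and in the changes with the shift was not tested.

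The other 8 genes gave no call at 37 °C. With sir2 included, 4 of the 9 had an unadjusted p under 0.05, beside 29.4% of all genes, and 2 of the 9 (clr3 and sir2) were lower in mis4-367 with no overlap, beside 17.3%. Of these, clr6 was higher by 0.18 ± 0.074 in mis4-367 (limma adjusted p = 0.129), with overlapping groups. The signal of clr3 was 438, 431 and 450.3 in mis4-367, against 468, 451 and 563 in mis4+, which did not overlap, yet the log2 difference of -0.16 ± 0.072 did not pass (limma adjusted p = 0.161). For clr2 the difference was -0.17 ± 0.079 (limma adjusted p = 0.167). Without replicate 3 of mis4+ at 37 °C the differences were 0.08 for clr6, -0.06 for clr3 and -0.07 for clr2. The remaining 5 genes lay between -0.18 and 0.09, with limma adjusted p-values from 0.306 to 0.753.

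At 25 °C, the temperature at which the mutant grows, none of the 9 genes passed with limma, where 0.622% of all genes did, and 1 of the 9 had an unadjusted p under 0.05, beside 11.4% of all genes. That gene was clr2, with 177, 182 and 178 in mis4-367, against 198, 210.0 and 216 in mis4+. Its log2 difference was -0.22 ± 0.079 (95% interval -0.39 to -0.05, limma adjusted p = 0.291). In 4 of the 9 genes (clr1, clr2, mit1 and mst2) every mis4-367 array lay below every mis4+ array, beside 23.9% of all genes. The widest 95% interval was that of epe1, from -0.34 to 0.16, and the narrowest that of sir2, from -0.13 to 0.06.

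**Figure D4:**
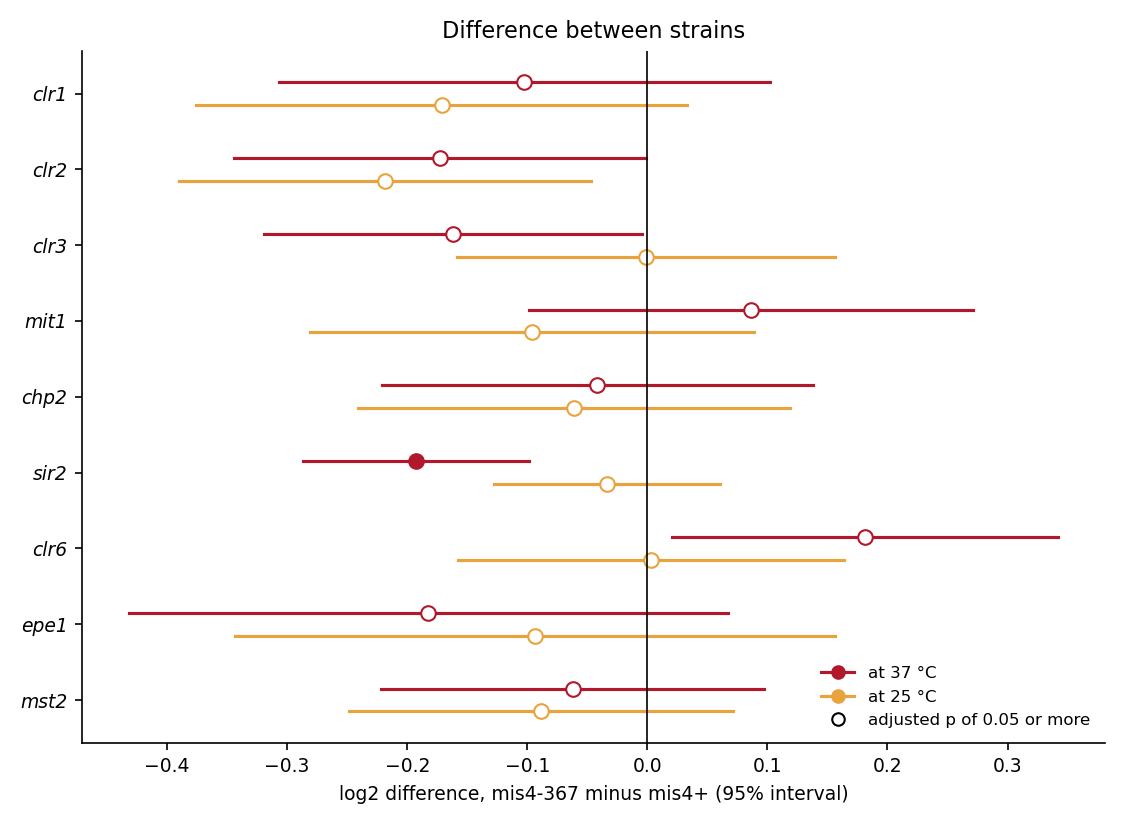
Log2 difference between strains, mis4-367 minus mis4+, for each gene at 37 °C and at 25 °C; bars are 95% intervals from limma and the filled dot has an adjusted p under 0.05. The filled dot is that of sir2 at 37 °C, at -0.19, and the interval of sir2 at 25 °C, from -0.13 to 0.06, includes 0.

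The difference of the responses was tested directly as the change with temperature in mis4-367 minus that in mis4+. None of the 9 genes passed with limma, and none of the 2896 genes did (0%), while 141 of them (4.87%) and 1 of the 9, sir2, had an unadjusted p under 0.05. The value for sir2 was -0.16 ± 0.061 on the log2 scale (95% interval -0.29 to -0.03, limma adjusted p = 0.824). The values of mit1 (0.18, 95% interval -0.08 to 0.44) and clr6 (0.18, 95% interval -0.05 to 0.41) had limma adjusted p-values of 0.824. A rise called in one strain and not in the other, as for clr1, clr3 and sir2, was thus not shown to differ between strains.

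The order of the group means summarises the 9 genes. For clr1, clr2 and mst2 it was mis4+ at 37 °C, mis4-367 at 37 °C, mis4+ at 25 °C and mis4-367 at 25 °C from high to low, and the neighbours overlapped except the last pair. For clr3 the order was the same, with overlap between the 25 °C groups only, and for chp2 it was the same with overlap within each temperature. For mit1 the order ran mis4-367 at 37 °C, mis4+ at 37 °C, mis4+ at 25 °C and mis4-367 at 25 °C, and the 37 °C groups overlapped. For sir2, mis4+ at 37 °C, with a mean of 395 ± 3.13, stood clear of the other 3 groups, whose means were 345 to 353 and whose neighbours overlapped. All neighbours overlapped for clr6 and for epe1. The clr6 means ran from 713 ± 86.4 in mis4+ at 37 °C to 806 ± 38.1 in mis4-367 at 37 °C, and the epe1 means from 75.0 ± 13.7 in mis4-367 at 37 °C to 91.6 ± 1.39 in mis4+ at 25 °C (SD, n = 3 each).

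The genes that SHREC and its antagonists work with were described by lists chosen by function. In the list of H3K9 methylation, RNAi and HP1 genes, 11 of 16 measured genes rose and none fell with the shift in mis4-367, and 9 of 16 rose and none fell in mis4+. Beside these counts, 33.4% of all genes rose in each strain, and 23% fell in mis4-367 and 21.9% in mis4+. The median log2 change of the list was 0.40 in mis4-367 and 0.30 in mis4+, beside 0.04 over all genes in each strain. After quantile normalization 8 rose and 2 fell in mis4-367 and 7 rose and 2 fell in mis4+, with swi6 among those that fell in both. The largest rise was that of rik1, which codes for a subunit of the Clr4 methyltransferase complex. It had 257, 288 and 288 in mis4-367 at 37 °C, against 148, 151 and 141 at 25 °C, and 241, 256 and 294 in mis4+ at 37 °C, against 158, 158 and 148 at 25 °C. Its groups lay far apart, with a log2 rise of 0.92 in mis4-367 (limma adjusted p = 5.51e-07) and 0.77 in mis4+ (limma adjusted p = 2.98e-06). The chromodomain gene chp1 of the RITS complex rose by 0.55 and 0.44, and the Argonaute gene ago1 by 0.41 and 0.61, in mis4-367 and mis4+.

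The list of deacetylase complexes around Clr6 and Hos2 also held the sirtuin genes hst2 and hst4. Its genes moved both ways: 3 of 18 rose and 6 fell in each strain. Of all genes, 33.4% rose in each strain, and 23% fell in mis4-367 and 21.9% in mis4+. The list medians were -0.14 in mis4-367 and -0.05 in mis4+, beside 0.04 over all genes in each strain. After quantile normalization 2 rose and 8 fell in mis4-367 and 2 rose and 9 fell in mis4+, with medians of -0.17 and -0.13. The Clr6 complex gene cph1 had 1304, 1378 and 1342 in mis4-367 at 37 °C, against 760.3, 790 and 806 at 25 °C. In mis4+ it had 1331, 1245 and 1330 at 37 °C, against 795, 769 and 777 at 25 °C. It thus rose by 0.77 in mis4-367 (limma adjusted p = 4.45e-08) and by 0.74 in mis4+ (limma adjusted p = 8.03e-08), while clr6 itself gave no call. The Set3 complex gene snt1 fell by 0.33 in mis4-367 and by 0.32 in mis4+, and the Clr6 complex gene sds3 fell by 0.32 and by 0.28. In mis4+ dep1 fell by 0.44 and rxt3 by 0.33, both coding for Clr6 complex subunits. In mis4-367 the value of dep1 was -0.22 (limma adjusted p = 0.0921), and after quantile normalization -0.82 (limma adjusted p = 3.46e-05). Its size thus depended on the scale. The signal of dep1 was dim, with 22.3, 25.7 and 28.5 in mis4-367 at 37 °C, against 27.3, 31.0 and 30.4 at 25 °C. Without replicate 3 of mis4+ at 37 °C the value of rxt3 was -0.17 (limma adjusted p = 0.0623). The next largest rises of the list were those of hst4, which codes for a sirtuin (0.26 in mis4-367), and of hif2 of the Set3 complex (0.31 in mis4+).

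Among the other acetyltransferases and the Mst2 complex, 5 of 12 genes rose and 2 fell in mis4-367, and 4 rose and 2 fell in mis4+. These counts stood beside 33.4% of all genes rising in each strain, and 23% falling in mis4-367 and 21.9% in mis4+. The acetyltransferase gene gcn5 of the SAGA complex rose by 0.73 in mis4-367 and by 0.77 in mis4+, and rtt109, whose product acetylates H3 lysine 56, by 0.72 and 0.63. The Mst2 complex gene ptf1 had 1417, 1528 and 1468 in mis4-367 at 37 °C, against 2025, 1990 and 1999 at 25 °C. In mis4+ it had 1387, 1435 and 1478 at 37 °C, against 1973, 1913 and 1912 at 25 °C. It fell by 0.45 in mis4-367 (limma adjusted p = 3.42e-06) and by 0.43 in mis4+ (limma adjusted p = 5.31e-06), while mst2 rose. The Elongator gene elp3 fell by 0.13 in mis4-367 and by 0.18 in mis4+.

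In the list of other anti-silencing and boundary factors, 3 of 12 genes rose and 4 fell in each strain. The list also held the chaperone genes asf1 and spt6, and not all its genes counteract silencing. Over all genes 33.4% rose in each strain, and 23% fell in mis4-367 and 21.9% in mis4+. After quantile normalization 1 of the 12 rose and 5 fell in mis4-367, and 2 rose and 4 fell in mis4+. The histone chaperone gene asf1 fell by 0.49 in mis4-367 and by 0.35 in mis4+. The gene cdt2, whose product directs the Cul4-Ddb1 ubiquitin ligase that degrades Epe1, had 420.1, 404 and 394 in mis4-367 at 37 °C, against 546, 555 and 576 at 25 °C. In mis4+ it had 466, 434 and 465 at 37 °C, against 594, 556 and 545 at 25 °C. It fell by 0.46 in mis4-367 (limma adjusted p = 8.12e-06) and by 0.31 in mis4+ (limma adjusted p = 0.000218), with no overlap in either strain. The ligase scaffold gene cul4 rose by 0.30 in mis4-367, though not after quantile normalization (0.21, limma adjusted p = 0.137). In mis4+ its value was 0.19 (limma adjusted p = 0.0605), and without replicate 3 at 37 °C it rose there by 0.32 (limma adjusted p = 5.61e-05). The demethylase-like gene lsd1 fell by 0.34 in mis4-367 and by 0.45 in mis4+, and the chaperone gene spt6 rose by 0.17 and 0.22. The gene lsd2, of the same family as lsd1, rose by 0.21 in each strain, but did not pass after quantile normalization (0.11 in each, limma adjusted p = 0.127 and 0.115).

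Of 5 genes whose products recruit SHREC, 1 rose (ccq1), 2 fell (atf1 and pcr1) and 2 did not pass (taz1 and swi6) in each strain. The shares of all genes were 33.4% rising in each strain, and 23% falling in mis4-367 and 21.9% in mis4+. After quantile normalization or array centring 4 of the 5 fell in mis4-367, with taz1 and swi6 among them. In mis4+ 3 of the 5 fell, with swi6 among them. The bZIP gene atf1, whose product brings SHREC to the silent mating-type region and drives stress genes, had 285, 319 and 334 in mis4-367 at 37 °C, against 567, 535 and 545 at 25 °C. In mis4+ it had 338, 324 and 374 at 37 °C, against 557, 602 and 574 at 25 °C. All arrays at 37 °C lay below all at 25 °C, and atf1 fell by 0.82 in mis4-367 (limma adjusted p = 8.74e-07) and by 0.74 in mis4+ (limma adjusted p = 2.24e-06). Its partner gene pcr1 fell by 0.83 and by 0.80 in mis4-367 and mis4+. The telomere gene ccq1 rose by 0.44 in mis4-367 (limma adjusted p = 0.000227) and by 0.30 in mis4+ (limma adjusted p = 0.00328).

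Between strains few of these listed genes passed, and 7.18% of all genes passed at 37 °C. At 37 °C the Argonaute-binding gene arb1 fell by 0.22 ± 0.056 in mis4-367 relative to mis4+ (limma adjusted p = 0.042). The deacetylase gene hos2 fell by 0.20 ± 0.052 (limma adjusted p = 0.0428), with 134, 139 and 140 in mis4-367, against 158, 162 and 155 in mis4+. The gene jmj2 of a JmjC-domain protein fell by 0.23 ± 0.054 (limma adjusted p = 0.0329). None of the 3 passed without replicate 3 of mis4+ at 37 °C (limma adjusted p = 0.0838, 0.0562 and 0.0562), and arb1 and hos2 did not pass under quantile normalization (0.0525 and 0.281) or array centring (0.0606 and 0.1). Other genes passed in the opposite direction on those scales. Higher in mis4-367 were hst4 (0.24 under quantile normalization and 0.23 under array centring, limma adjusted p = 0.0434 and 0.047) and ccq1 (0.29 and 0.23, limma adjusted p = 0.0227 and 0.0348), and under quantile normalization cid12 of the RNAi polymerase complex (0.39, limma adjusted p = 0.0168). Without replicate 3 of mis4+ at 37 °C, cul4 was lower in mis4-367 (-0.23, limma adjusted p = 0.0171). At 25 °C no gene of these lists passed, beside 0.622% of all genes. The log2 difference of arb1 there was -0.24 ± 0.056 (limma adjusted p = 0.0884), about as large as at 37 °C. For hos2 it was -0.12 (limma adjusted p = 0.423) and for jmj2 -0.16 (limma adjusted p = 0.249). A call at 37 °C and none at 25 °C thus does not show that these differences arose with the shift.

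**Figure D5:**
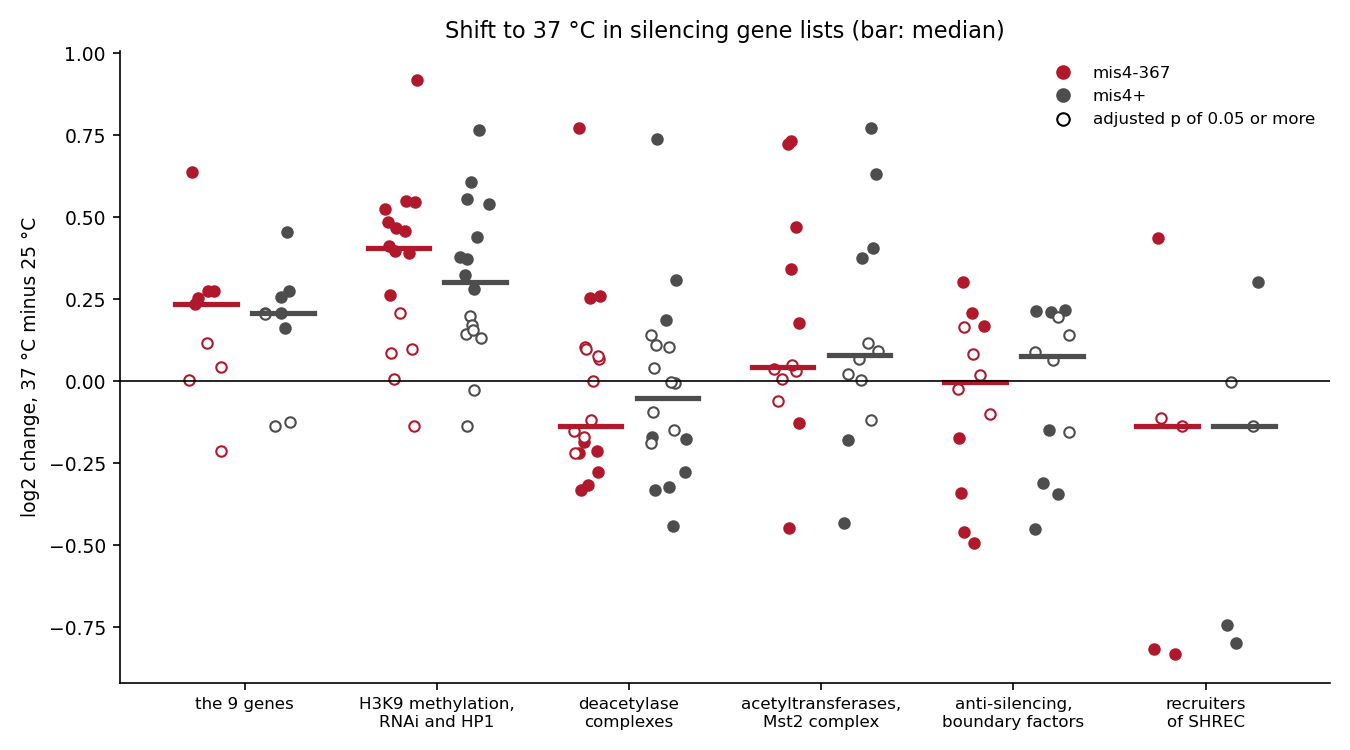
Log2 change with the shift, 37 °C minus 25 °C, of each measured gene in the 9 genes and in 5 lists of silencing genes, in mis4-367 and in mis4+; horizontal bars are medians and filled dots have an adjusted p under 0.05. The H3K9 methylation list has medians of 0.40 and 0.30, while atf1 and pcr1 lie lowest, at -0.74 or below.

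Over the 12 arrays the 9 genes followed each other unequally. The Pearson correlation of log2 values was highest for clr1 with mst2 (0.914), chp2 with mst2 (0.909), clr2 with mst2 (0.904) and clr1 with clr2 (0.902), and among the 5 SHREC genes it ran from 0.648 (clr3 with mit1) to 0.902. The values of clr6 correlated with those of the others between -0.758 (clr3) and -0.144 (mit1), and those of epe1 between -0.244 and 0.140. All points share the shift and the array that stood apart, so these are descriptions. Of all genes, the ones most like each member over the 12 arrays were cek1 for clr1 (0.963), pfs2 for clr2 (0.966), pof9 for clr3 (0.971) and cyp8 for mit1 (0.978). They were rrn6 for chp2 (0.939), apc2 for sir2 (0.932), atp5 for clr6 (0.974), pik3 for epe1 (0.903) and atl1 for mst2 (0.977).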

How the data were processed

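The authors deposited 1 table of 12 arrays and 10928 probe sets. Per the submitters' processing notes its values come from RMA (version not given in the sources used here), which normalizes the arrays together and compresses changes of dim probe sets; the deposited values are intensity on a linear scale, from 3.96 to 12169. Their log2, with no pseudocount, was analysed. Of the probe sets, 2914 had 1 S. pombe gene name in the platform annotation; the brightest per gene was kept, for 2896 genes. Names were updated through a RefSeq gene table; no sequence was used. Background was the 95th percentile of the mean log2 of 2601 probe sets with upper-case gene names that matched no S. pombe gene, an intensity of 10.7. limma 3.58.1 in R 4.3.3 fitted 4 group means, tested on simulated data first, with Benjamini-Hochberg adjustment. The members and lists were chosen with earlier results of these data known. Named from the lists were genes called between strains and the 2 largest calls per direction with the shift. With 3 arrays per group, their number limits precision.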

Additional observations from a re-analysis of the deposited data

How the results depend on the processing

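The rise of mit1 with the shift passed under every alternative run, in both strains, and no called direction of the 9 genes reversed. At 37 °C the number of members that differed between strains, 1 in the main analysis, was 0 after quantile normalization, 0 after centring on array medians and 0 in a fit of those groups alone, and 0 to 2 when single arrays were left out (0 without replicate 2 of mis4-367, 2 without replicate 2 of mis4+, where clr6 also passed). At 25 °C it was 1 (clr2) in a fit of those groups alone and 2 (clr1 and clr2) with array weights, beside 0. With the shift in mis4-367 it was 3 after quantile normalization, beside 5, and 2 to 5 with single arrays left out (2 without replicate 1 at 25 °C or replicate 3 at 37 °C, 3 without replicate 2 at 37 °C). In mis4+ it was 3 to 8, beside 6 (3 without replicate 1 at 25 °C or replicate 3 at 37 °C, and 8 without replicate 2 at 37 °C, where clr6 fell). The difference of responses gave 0 members throughout, and 2 of all genes with array weights. Over all genes, the count between strains at 37 °C moved from 208 to 10 in a fit of those groups alone, 474 with array weights and 22 to 566 with single arrays left out. At 25 °C it moved from 18 to 154, 496 and 3 (groups alone, array weights, quantile normalization). The causes of these moves were not tested. Whether replicate numbers pair the arrays was not settled. Between 37 °C and 25 °C, deviations of same-numbered arrays from their group means correlated at 0.0611 to 0.0900 in mis4-367. Each was above the highest value with another number, -0.0428 to 0.0315. In mis4+ they correlated at -0.0878 to 0.0297, and only replicate 2 was above the highest value with another number. Between strains they correlated at -0.383 to 0.183. With the replicate number as a block the members called numbered 1, 0, 5, 7 and 0 (strain at 37 °C, strain at 25 °C, shift in mis4-367, shift in mis4+, difference of responses), and sir2 had a limma adjusted p of 0.0396. With the culture (strain and replicate number) as a block no call of a member changed, and the correlation estimated within cultures was 0.0082.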
